A study of Mus musculus with 2 samples.

Results

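Interleukin-6 type cytokine signalling and its feedback were read in ovulating ovaries through 10 mouse genes: the ligand genes Il6, Il11 and Lif, the receptor genes Il6ra, Il6st and Osmr, the transcription factor gene Stat3, and the inhibitor genes Socs1, Socs3 and Cish. The genes were chosen with earlier results of these data known. Their probe sets were taken by name, as every probe set whose single annotated symbol was 1 of the 10. This gave 22 of the 45101 probe sets on the array. RNA was measured on Affymetrix mouse genome arrays in wild-type ovaries and in ovaries of progesterone receptor (PR) knockout mice, with 1 array per genotype. Both groups were immature C57BL/6 females 24 to 28 days old. Both were injected with PMSG (5 IU), a serum gonadotropin of the pregnant mare that stimulates follicle growth, and 48 h later with hCG (5 IU), a human chorionic hormone that mimics the ovulatory surge of luteinizing hormone. Ovaries were collected 11 h after hCG. The PR allele and the number of mice per RNA sample are not given in the sources used here.

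Cytokines of this family signal through gp130, the shared receptor chain encoded by Il6st. A ligand brings gp130 together with a partner chain such as IL6RA or OSMR, and the bound JAK kinases then phosphorylate STAT3, which enters the nucleus and switches on target genes. Socs3 is among those targets, and its protein binds gp130 and JAK and shuts the signal off. In the ovulating follicle, granulosa and cumulus cells make IL-6 after the luteinizing hormone surge, and the cytokine acts on the cumulus cells around the oocyte. SOCS1 and CISH are relatives of SOCS3, and CISH is best known as a target and inhibitor of STAT5.

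Signals are MAS5 intensities on a linear scale, and an array's floor was its median over probe sets that are not controls, 36.2 for the wild type and 37.95 for the knockout. A gene was measured if its brightest probe set, the one with the highest mean log2 signal, reached the floor on at least 1 array. Signals under the floor were set to it, so that a fold against them is a lower bound, written "at least". With 1 array per genotype there is no replicate error and no test, and the values compare these 2 RNA samples. Probe sets that read 1 gene give the available spread, an SD of 0.25 on the log2 scale over 4771 genes. Pgr, the targeted gene, gave 36.5 in wild type and 42.8 in knockout by its brightest probe set, so the arrays hold no check of the genotype labels. The tissue label was borne out by markers, since 7 of 7 granulosa and 7 of 7 oocyte marker genes with a probe set were measured on both arrays.

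Il6, Socs3, Osmr and Il11 had lower signals in the knockout ovary, and Stat3 was lower by close to the 2-fold mark. By its brightest probe set Il6st was 1.53-fold lower, with a mean over its probe sets of -0.31 on the log2 scale. Cish was 1.20-fold higher. Of the 10 genes, 4 were lower in the knockout by 2-fold or more and 0 were higher by as much. Among the 11316 measured genes of the array, 195 (1.72%) were lower by that amount and 130 (1.15%) higher, and after removal of the loess trend with signal these were 230 and 85. Of the 10 genes, 3 (Lif, Il6ra and Socs1) lay under the floor on both arrays and cannot be read in either direction. Il6 and Il11 reached the floor in the wild type alone and could therefore appear only as lower. Of the 5 genes measured on both arrays, 2 were lower by 2-fold or more and 0 higher, where 1.57% and 0.978% of the 10633 genes measured on both arrays were. By single probe sets, 7 of the 15 measured were lower by 2-fold or more, against 1.67% of 20267, 0 were higher by as much, against 1.06%, and 14 of 15 were lower by any amount, against 42.5%. Probe sets of 1 gene read the same transcripts and are not independent. Because the 10 genes were chosen with earlier results of these data known, these shares describe the set and are no test of it.

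**Figure D1:**
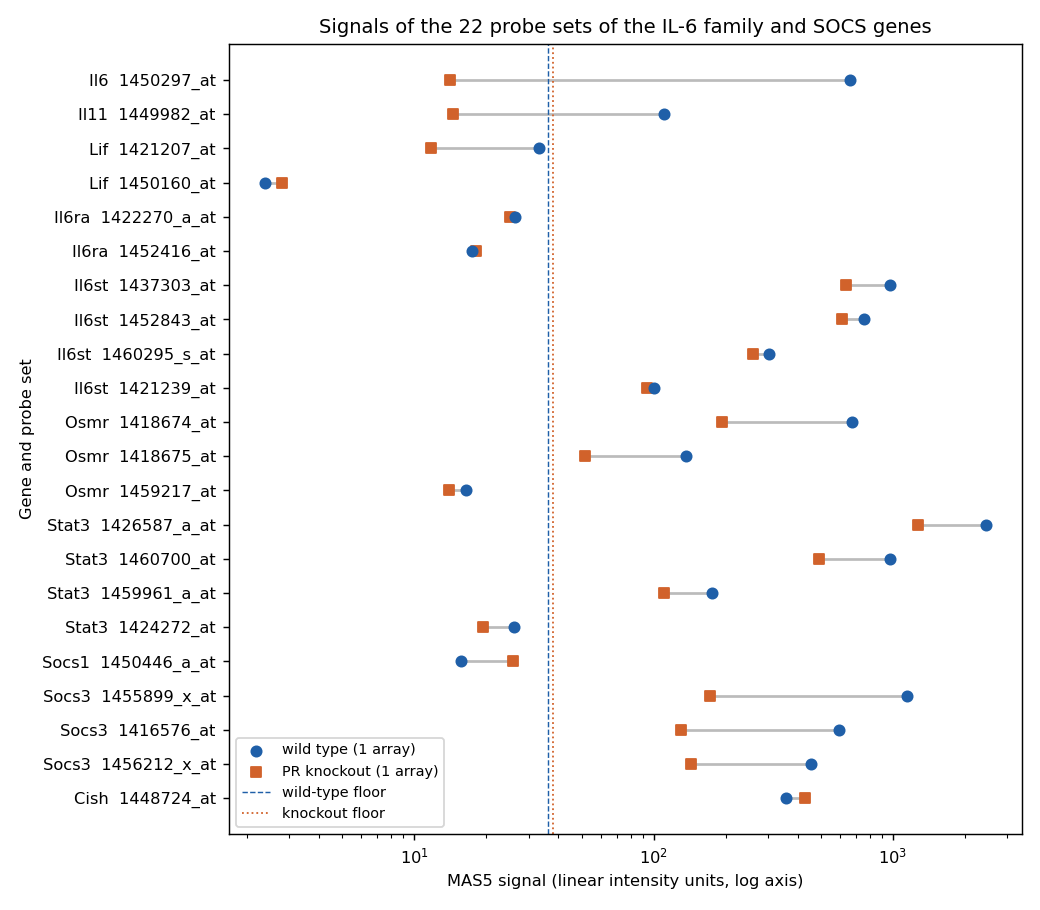
MAS5 signal (log axis) of each of the 22 probe sets on the wild-type array (circles) and the PR knockout array (squares), with each array's floor as a vertical line. Among probe sets that reach a floor, the wide gaps are those of Il6, Il11, Osmr and Socs3. Under the floors, the brighter Lif probe set also shows a gap, while the Il6ra pairs nearly coincide.

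The ligand genes were led by Il6, which encodes the inflammatory cytokine IL-6. Its only probe set gave 660.6 in the wild-type ovary and 14.1 in the knockout. The wild-type signal was 18.2 times its floor and the knockout signal was under its floor, so Il6 was at least 17.4-fold lower, or -4.12 on the log2 scale. The floor sets the size of this bound, which was -2.37 with the floor at the 70th percentile of each array.

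Il11 encodes a cytokine that signals through gp130 and is best known for its part in decidualization of the uterus. Its probe set gave 110.2 in wild type and 14.5 in knockout, at least 2.90-fold lower. The wild-type signal was 3.04 times the floor, and with the 70th-percentile floor Il11 was not measured on either array. Lif encodes leukaemia inhibitory factor, which the uterus needs for implantation. Its brighter probe set gave 33.0 and 11.7 in wild type and knockout and the other 2.37 and 2.80, all under the floors, so that Lif was not measurable in either ovary.

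Il6 showed the largest difference of the set with the reported floor, and the sequence around its start is therefore shown. With the 70th-percentile floor, the Il6 value of -2.37 is a bound and cannot be ranked against that of Socs3, at -2.74. The window runs from 250 bases before to 50 bases after the annotated start (RefSeq, GRCm38.p6, chr5:30012864-30013163, plus strand). Capitals mark matches, on either strand, to AP-1 (TGANTCA, starting 249 bases before the start), to the core of the cAMP response element (TGACG, read here as CGTCA, 135 bases before), to C/EBP (TTGNGCAA, 128 bases before) and to NF-kB (GGGANTTTC, 44 bases before). None of these matches overlap.
Il6: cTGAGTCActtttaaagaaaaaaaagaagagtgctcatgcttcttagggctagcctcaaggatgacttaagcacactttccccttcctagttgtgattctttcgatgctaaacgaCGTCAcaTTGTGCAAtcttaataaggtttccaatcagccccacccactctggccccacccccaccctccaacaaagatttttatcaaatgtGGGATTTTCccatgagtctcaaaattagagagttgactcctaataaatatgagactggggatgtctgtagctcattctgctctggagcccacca
Of 32851 windows of this length in the same table, 7.81% hold the AP-1 letters, 20.8% the core letters TGACG, 2.94% the C/EBP letters and 1.11% the NF-kB letters. These factors are textbook regulators of Il6 in inflammation, and a match of letters is a description of the window and does not show binding. The AP-1 letters also occur in windows of Il11, Lif and Osmr, and the core letters in those of Il6ra and Cish. The palindromic motif of the progesterone and glucocorticoid receptors (GNACA and TGTNC with a gap of 3 bases), found in 0.475% of windows, matched 0 of the 11 windows of the 10 genes. The full cAMP response element TGACGTCA, found in 1.79% of windows, likewise matched 0.

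Among the receptor genes, Osmr was lower in the knockout by more than 2-fold and Il6st by less. Osmr encodes the partner chain of gp130 in the oncostatin M receptor. Its brightest probe set gave 672.6 in wild type and 193.5 in knockout, 3.48-fold lower, at rank 48 from the lowest of the 11316 measured genes, bounds included. The other measured probe set gave 136.8 and 51.7, a log2 difference of -1.40 against -1.80 for the brightest. Both were above the floor in both ovaries, so neither value is a bound. The third probe set lay under the floor on both arrays, at 16.4 and 13.9.

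Il6st, the gene of gp130, was measured by all 4 of its probe sets. The brightest gave 971.0 in wild type and 636.6 in knockout, 1.53-fold lower. The others gave 758.3 and 611.7, 302.9 and 261.3, and 100.8 and 93.9 in the same order. All 4 were lower in the knockout, from -0.61 to -0.10 on the log2 scale, with a mean of -0.31 and an SD of 0.22 over the 4. That mean is close in size to the spread of 0.25 between probe sets of 1 gene. Il6ra, which encodes the chain that binds IL-6 itself, gave 26.2 and 24.98 by one probe set and 17.5 and 18.1 by the other. All 4 signals were under the floors, so IL-6 receptor transcript was not measurable in either whole ovary by these probe sets.

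Stat3, the transcription factor gene at the end of the relay, was 1.93-fold lower by its brightest probe set. Its signals were 2456 in wild type and 1269 in knockout, at rank 217 from the lowest. A further probe set gave 968.4 and 489.3 and another 176.0 and 110.1. These 3 probe sets read -0.95, -0.99 and -0.68 on the log2 scale, all lower in the knockout, the first 2 close to 2-fold and the last 1.60-fold. After median centring Stat3 was at -1.01, which makes 5 of the 10 genes at least 2-fold lower. The fourth probe set was under the floor on both arrays, at 26.1 and 19.3.

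The inhibitor genes differed from each other. Socs3, the feedback inhibitor of gp130 signalling, gave 1147 in wild type and 171.8 in knockout by its brightest probe set, 6.68-fold lower, at rank 16 from the lowest. The other 2 probe sets gave 593.7 and 130.1, and 453.3 and 143.1. All 3 were above the floor on both arrays and at least 2-fold lower in the knockout, but they differed among themselves by 1.08 on the log2 scale, from -2.74 to -1.66. The brightest and the dimmest of them are x_at probe sets, a type that can also match other transcripts, and the remaining one gave -2.19, or 4.56-fold lower.

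Cish did not share this direction. Its single probe set gave 358.9 in wild type and 430.7 in knockout, 1.20-fold higher, or 0.26 on the log2 scale, about the size of the spread between probe sets of 1 gene. Socs1, the inhibitor best known from interferon signalling, gave 15.7 and 25.9, both under the floors, and was not measurable.

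**Figure D2:**
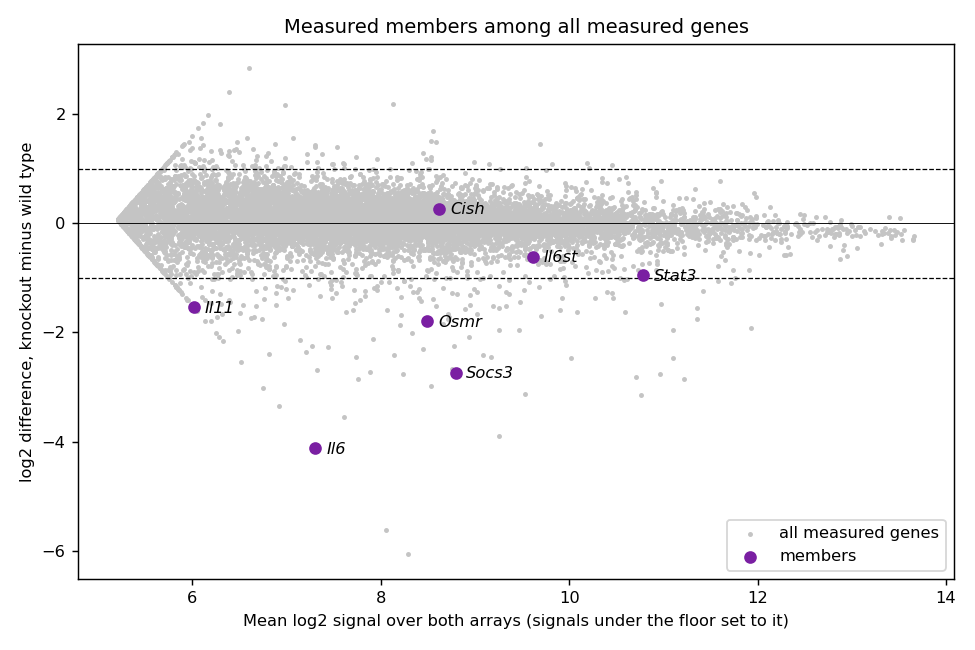
log2 difference (knockout minus wild type) against mean log2 signal over both arrays for the 11316 measured genes (grey) and the 7 measured genes of the set (purple), with dashed lines at 2-fold. Il6, at -4.12 among the lowest points of the plot, and Il11 both lie on the diagonal edge that the floor makes. The values of Il6 and Il11 are bounds. Cish lies inside the grey band at 0.26.

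Socs3 and Cish are textbook STAT targets with different readings here, and they are the members of the set whose start windows hold the STAT motif TTCNNNGAA, a palindrome that reads the same on both strands and occurs in 8.3% of all windows. The Socs3 window (RefSeq, GRCm38.p6, chr11:117969317-117969616, minus strand) has 1 match, starting 154 bases before the start. The Cish window (chr9:107296409-107296708, plus strand) has 2, beginning at bases 1 and 12 of the transcript, and also a core CGTCA starting 97 bases before it. Capitals mark these matches.
Socs3: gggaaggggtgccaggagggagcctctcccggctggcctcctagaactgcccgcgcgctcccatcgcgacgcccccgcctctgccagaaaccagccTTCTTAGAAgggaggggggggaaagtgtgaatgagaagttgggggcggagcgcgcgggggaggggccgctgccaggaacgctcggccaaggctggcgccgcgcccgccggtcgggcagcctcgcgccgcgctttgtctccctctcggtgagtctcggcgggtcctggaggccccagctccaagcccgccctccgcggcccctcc
Cish: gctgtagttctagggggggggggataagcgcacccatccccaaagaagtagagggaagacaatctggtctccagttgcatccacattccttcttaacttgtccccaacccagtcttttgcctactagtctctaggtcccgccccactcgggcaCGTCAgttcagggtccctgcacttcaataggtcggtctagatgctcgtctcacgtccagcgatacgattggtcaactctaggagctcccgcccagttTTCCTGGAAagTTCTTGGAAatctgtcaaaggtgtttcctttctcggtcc
The Socs3 match reads TTCTTAGAA, and those of Cish read TTCCTGGAA and TTCTTGGAA, so the 3 differ in the middle bases alone. The windows of the other 8 genes hold no such letters. Each of the 10 genes had a window in the RefSeq table, with a second one for Il11.

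The rest of the pathway was read with lists of 51 further genes, of which 46 were on the array under a symbol of their own and 43 reached the floor. Lower by 2-fold or more were 6 of the 43 and higher 0, where 1.72% and 1.15% of all measured genes were, and all 6 were in the list of known STAT3 target genes. The median log2 difference of the 43 was -0.26, against 0.06 for all measured genes. The lists were chosen with earlier results of these data known, so these shares describe the lists and are no test of them.

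Among the other ligand genes of the family, 2 were measured. Clcf1, which encodes a cytokine acting on the ciliary neurotrophic factor receptor, gave 126.3 in wild type and 65.4 in knockout, 1.93-fold lower. Its other probe sets read -0.67 and -1.28 on the log2 scale. Under each of the 3 rescalings Clcf1 was past 2-fold, as low as -1.06. The 70th-percentile floor took its difference to 0.01, since its knockout signal was under that floor and was set to it. That value is therefore a bound. Ctf1, the cardiotrophin-1 gene, gave 53.3 and 53.1. The probe set of Osm, the gene of the ligand that OSMR binds, was under the floor on both arrays, at 15.9 and 24.2.

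Of the other receptor chain genes, Lifr, the partner of gp130 in the LIF receptor, gave 554.7 and 447.8, 1.24-fold lower by its brightest probe set, with 0.17 on the log2 scale by a dimmer one. Il27ra, an interleukin-27 receptor gene, was under the wild-type floor and gave 48.4 in knockout, at least 1.34-fold higher. Cntfr, a ciliary neurotrophic factor receptor gene, gave 40.6 in wild type and was under the knockout floor. The values of Il27ra and Cntfr are bounds, so their sizes cannot be set against that of Osmr.

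The JAK kinase genes, whose products phosphorylate STAT proteins, were all measured and none was 2-fold apart. Jak2 gave 374.3 in wild type and 276.1 in knockout, 1.36-fold lower, and its second probe set read -0.53 on the log2 scale. Jak1 gave 1466 and 1842, 1.26-fold higher, and its 3 probe sets read 0.31 to 0.55. Stat3 also stood apart in direction from the other 4 measured STAT genes, which ran from 0.03 (Stat2) to 0.59 (Stat5a) on the log2 scale. The sign of Stat2 turned under each of the 3 rescalings. Stat5a gave 258.6 and 390.0, 1.51-fold higher, and Stat5b 268.5 and 330.0, 1.23-fold higher. Both encode the factors through which prolactin and growth hormone signal.

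All 13 other inhibitor genes of JAK-STAT signalling were measured on both arrays, with 8 lower and 5 higher, 0 of them by 2-fold, and a median of -0.14. With the mean over probe sets, 7 were lower and 6 higher. Of all measured probe sets, 42.5% were lower by any amount. The largest differences were those of Ptpn2, a phosphatase gene acting on JAKs and STATs (1299 and 918.6, 1.41-fold lower), and Socs5 (307.1 and 242.8, 1.26-fold lower). The second probe set of Socs5 gave 177.0 on both arrays. By their brightest probe sets, the SOCS genes of this list ran from -0.34 (Socs5) to 0.27 (Socs2) on the log2 scale, where Socs3 was at -2.74. The other measured probe sets of Socs2 read 0.45, -0.02, 0.69 and 0.93.

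The list of known STAT3 target genes, many of which other pathways also induce, had 15 of 17 lower by any amount. Of all measured probe sets, 42.5% were lower by any amount. The list median was -0.74, against 0.06 for all measured genes. Lower by at least 2-fold were 6 of 17 (background 1.72%) and higher by at least 2-fold 0 of 17. Because the list was chosen with earlier results of these data known, its share was not tested against the background. Junb, an AP-1 subunit gene, gave 788.0 in wild type and 115.7 in knockout, 6.81-fold lower. Fos, its partner in AP-1, gave 962.1 and 201.3, 4.78-fold lower. Cebpd, which encodes a C/EBP factor of the acute phase response, gave 653.8 and 122.1, 5.36-fold lower. A dim second probe set of Cebpd, at 38.1 in wild type and under the knockout floor, gave no readable difference, so that the mean over its probe sets was -1.21 in place of -2.42.

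Smaller differences past 2-fold were seen in Bcl3, Pim1 and Icam1. Bcl3, a regulator of NF-kB, gave 260.6 and 103.0, 2.53-fold lower. Pim1, a survival kinase gene, gave 361.6 and 143.4, 2.52-fold lower, and at least 2.34-fold by its second probe set. Icam1, a leukocyte adhesion molecule gene, gave 157.2 and 66.2, 2.37-fold lower. With the 70th-percentile floor its difference was -0.30, a bound, since its knockout signal was under that floor and was set to it. The 2 genes that were higher were Saa3, an acute phase gene, at 254.2 and 447.2 (1.76-fold), and Ccnd1 at 0.09 on the log2 scale, whose sign turned with the mean over its probe sets.

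**Figure D3:**
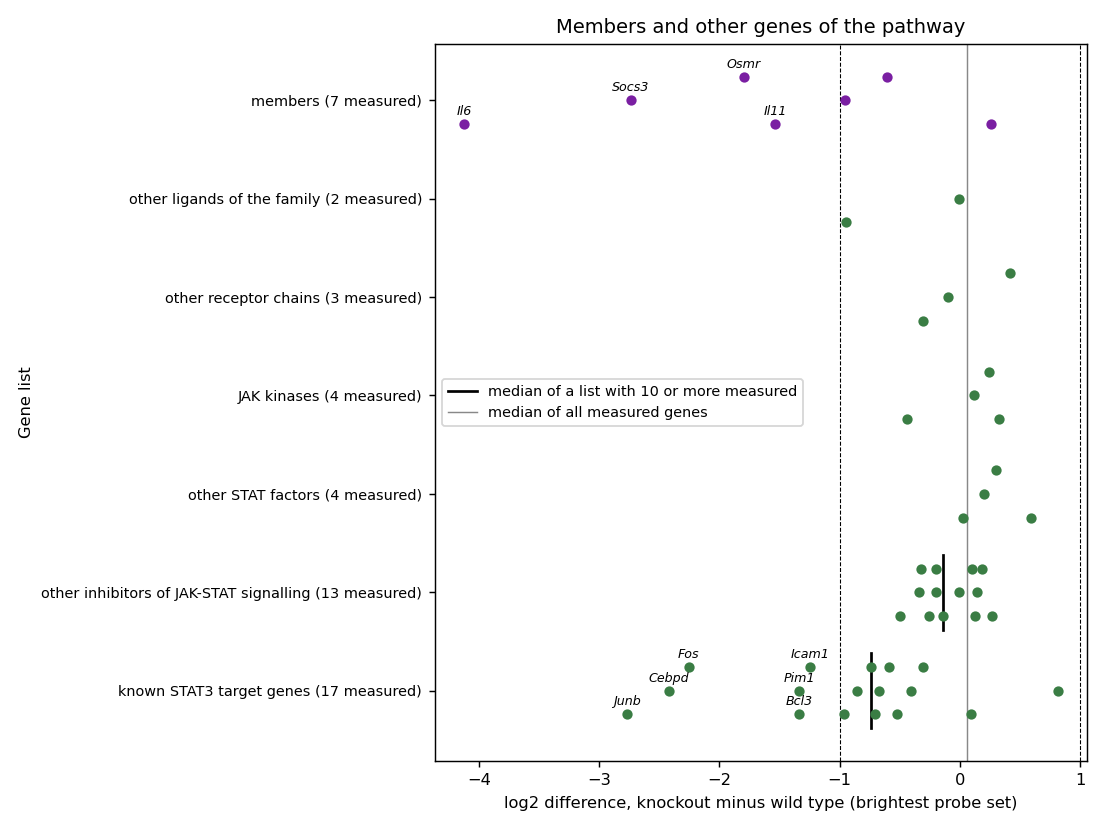
log2 difference (knockout minus wild type) of each measured gene by its brightest probe set, for the 10-gene set and for the 6 lists of other pathway genes, 1 point per gene. Names mark genes at least 2-fold apart (dashed lines), the black bars are medians of lists with at least 10 genes measured, and the grey line is the median of all measured genes. Differences past 2-fold occur in the set itself and among known STAT3 targets, with none in the other 5 lists, where Clcf1 passes 2-fold after rescaling.

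Markers of the cell types in a whole ovary were read beside these values. In bulk tissue, fewer cells of a type and less RNA per cell cannot be told apart. Of 11 leukocyte markers with a probe set, 6 were measured, 4 lower and 2 higher in the knockout with a median of -0.11, and their summed signal was 846.2 in wild type and 907.9 in knockout. Ptprc, the pan-leukocyte gene, gave 62.8 and 54.7, and the largest difference of the list was that of Cd14, at -0.85 on the log2 scale. The lymphocyte and neutrophil markers Cd3e, Cd79a, Itgam, S100a8 and S100a9 were under the floor on both arrays. The part of leukocytes in the differences of the 10 genes was not tested.

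Granulosa markers, from cells that make IL-6, summed to 11526 and 13164 over 7 genes, and Esr2 differed most, at 0.94 on the log2 scale. Of the 7, 6 were higher in the knockout and 1 lower, with a median of 0.61. The lower one was Inha, at 8399 and 8073, which makes up most of the sums. Luteal and theca markers summed to 31230 and 28606 over the 4 measured, with Star at -0.55. Oocyte markers summed to 2251 and 2509, with Nlrp5 at 0.56, and endothelial markers to 1042 and 1263, with Tie1 at 0.95. Stromal markers summed to 9011 and 11167 over 6 genes, with Tcf21 at 1.46.

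Other markers were lower in the knockout together with Il6, Socs3 and Osmr. Of 6 oviduct and surface epithelium markers, the 4 keratin and cadherin genes were measured, with summed signals of 875.3 and 458.5, and Krt8 differed most, at -1.18. The oviduct markers Ovgp1 and Foxj1 were under the floor on both arrays. Of the fat cell markers, Fabp4, which other cell types also express, gave 335.1 and 70.9, while Adipoq and Cidec were under the floor on both arrays. The part of surface epithelium or Fabp4-expressing cells in the differences of the 10 genes was not tested.

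**Figure D4:**
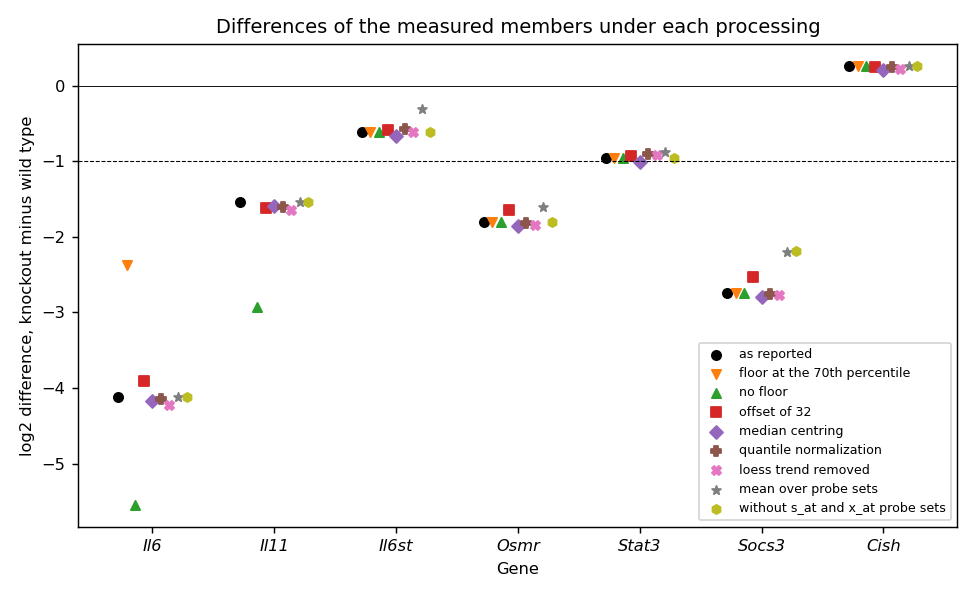
log2 difference (knockout minus wild type) of the 7 measured genes as reported (black) and under 8 other ways of processing the signals, 1 symbol per way. Il6 spans -5.55 to -2.37 with the choice of floor, Il11 has no value with the 70th-percentile floor, and the 5 genes measured on both arrays stay on their own side of 0.

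The direction of each of the 5 genes measured on both arrays was the same under all the alternatives. Osmr ran from -1.85 to -1.60, Stat3 from -1.01 to -0.87, Socs3 from -2.80 to -2.19, Il6st from -0.67 to -0.31 and Cish from 0.21 to 0.26 on the log2 scale. The values of these 5 genes are read on both arrays above the floor, while those of Il6 and Il11 depend on where the floor is set.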

How the data were processed

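RNA of 1 wild-type and 1 PR knockout ovary sample was labelled from 100 ng of total RNA, per the labels' protocols. The deposited values are linear MAS5 intensities, 1 per probe set, made by the authors with Affymetrix Expression Console version 1, per the submitters' processing notes. On both arrays the mean after trimming 2% at each end was 150.0. No detection calls or genome build are given in the sources used here. Depth is that of an array, and the number of arrays limits the precision.

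Signals were taken to log2 after setting those under the floor to it, and differences are knockout minus wild type. Of 45101 probe sets, 64 were controls and 34945 carried 1 symbol, for 18193 genes. All 22 probe sets of the 10 genes matched their RefSeq gene ID and symbol. Genes and lists were chosen with earlier results of these data known, and motifs were chosen after the values were seen. From each pathway list, genes at least 2-fold apart were named, or else the 2 with the largest differences. From each marker list, the 1 with the largest difference was named. The few other genes named (Osm, Stat2, Socs2, Saa3, Ccnd1 and further markers) were added after their values were seen. The calculation was tested on simulated data, where the direction of 200 of 200 changed genes was recovered. Only bright genes were changed there, by 2-fold or more, with noise smaller than the spread between probe sets of 1 gene. The simulation therefore checks the arithmetic and does not cover dim genes or those under the floor. Python 3.11.15, pandas 2.3.3 and statsmodels 0.14.6 were used. Alternatives changed the floor, an offset of 32, the scaling, the probe set rule and the fold.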

Additional observations from a re-analysis of the deposited data

How the results depend on the processing

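Without a floor, the median log2 difference of the measured genes of the set was -1.80 in place of -1.54, the value of Il11, which was then at -2.93. The median of the 5 genes measured on both arrays was -0.95 and ran from -1.01 to -0.87. The count of genes of the set at least 2-fold lower, 4, was 3 with the 70th-percentile floor, 5 after median centring, 6 at a 1.5-fold threshold and 3 at a 3-fold threshold. Among the other pathway genes, 6 were lower and 0 higher at 2-fold as reported. At the 1.5-fold threshold 13 were lower and 2 higher, and at the 3-fold threshold 3 were lower. At 2-fold, 8 were lower under each of the 3 rescalings, 5 with the 70th-percentile floor and 5 with the offset of 32. Of all measured genes, 4.75% were lower and 6.54% higher at 1.5-fold, and 0.62% were lower at 3-fold. At 2-fold, 1.57% were lower with the 70th-percentile floor and 1.33% with the offset of 32. After median centring, quantile normalization and removal of the loess trend, 1.94%, 1.89% and 2.03% were lower at 2-fold. No paired analysis was possible because each genotype has 1 array. For the same reason, no array could be left out, and a difference of genotype cannot be told apart from one of animals, RNA preparation or hybridization. Signals under the floor limit Lif, Il6ra and Socs1, which have no readable difference, and Il6 and Il11, whose folds are bounds.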
